A study of Rattus norvegicus with 6 samples.

Results

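The levels of 10 genes of the ATF4 stress response and of serine and asparagine synthesis were followed in AR42J cells: Atf4, Atf3, Ddit3, Trib3, Nupr1, Ppp1r15a, Asns, Phgdh, Psat1 and Psph. Their probe sets were taken by gene symbol from the array annotation, and they are 10 of 10411 named genes and 12 of 15866 probe sets. The choice of genes was made with earlier results of these data known. AR42J is an acinar-like line from a rat pancreatic tumour. One group of cultures received 100 nM dexamethasone, a synthetic glucocorticoid, for 48 h (n = 3), and the control group received the same medium without it (n = 3). All cultures shared the other conditions: each experiment started from frozen stock at passage 29, with 24 h of plating in 20% serum followed by 48 h in 5% serum, and the 3 experiments were spread over 5 months. Each culture's total RNA was measured on 1 Affymetrix rat array, and the deposited value is a MAS5 signal, a linear brightness scaled to each array's own total. The line, dose and time are single, and in such bulk RNA fewer cells that express a gene and less of its RNA per cell cannot be told apart.

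ATF4 is the central transcription factor of the integrated stress response. Kinases that sense amino acid shortage, unfolded protein, viral RNA or haem shortage phosphorylate the initiation factor eIF2, which lowers general translation and raises translation of the ATF4 messenger. ATF4, usually paired with a C/EBP factor, then activates genes of amino acid synthesis, uptake and tRNA charging, and a set of stress regulators that includes Ddit3 (CHOP), Trib3, Atf3 and Nupr1. The phosphatase subunit encoded by Ppp1r15a (GADD34) closes the loop by removing the phosphate from eIF2. Since much of this control acts on translation, messenger levels do not report the amount of ATF4 protein or the state of eIF2, and neither was measured.

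With dexamethasone, 5 of 9 member genes tested rose and 0 fell, by limma with Benjamini-Hochberg adjustment over all probe sets tested and a threshold of 0.05. The risers were Nupr1, Asns, Trib3, Ppp1r15a and Atf4 itself. Phgdh, Psat1 and Psph, the enzymes of serine synthesis, and Ddit3 did not pass, and Atf3 was below background on every array. Dexamethasone changed much of the array: 37.1% of probe sets and 38.4% of genes passed the same test, and 15.9% of probe sets and 17.0% of genes rose. For these 5 genes every dexamethasone array was above every control array, which held for 22.0% of all probe sets tested. The median log2 change was 0.74 over the 9 member genes tested and -0.04 over all 7051 genes tested. The 0 fallers also held at an unadjusted p under 0.05.

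**Figure D1:**
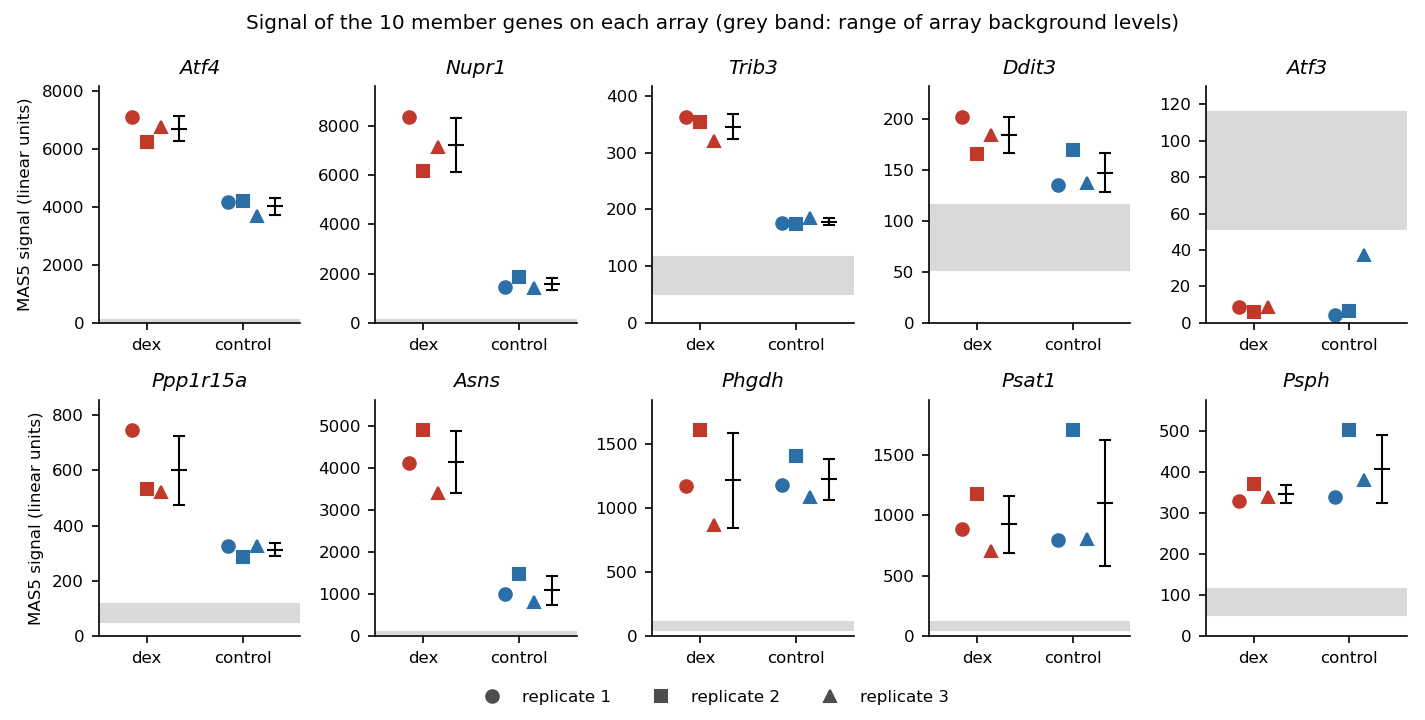
MAS5 signal (linear units, each panel with its own axis from 0) of the 10 genes on the 3 dexamethasone and 3 control arrays, with the mean and SD beside each group except for Atf3, and marker shapes for replicate numbers. The groups are apart for Atf4, Nupr1, Trib3, Ppp1r15a and Asns, overlap for Ddit3, Phgdh, Psat1 and Psph, and all 6 Atf3 signals lie under the grey band of array background levels.

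Atf4, the transcription factor that heads the response, had signals of 7101, 6251 and 6750 in dexamethasone cultures, against 4170, 4211 and 3684 in control cultures. Every dexamethasone array was above every control array. The mean signal was 6700 ± 427 with dexamethasone and 4021 ± 293 in controls (SD, n = 3 each), a log2 change of 0.74 ± 0.10 (SE; limma adjusted p = 0.000708), or 1.67-fold with a 95% interval of 1.42 to 1.96. The change was 0.77, 0.57 and 0.87 in the 3 pairs of cultures. It was 0.49 (adjusted p = 0.00375) when arrays were scaled to the spiked hybridization controls, a scaling under which the median over all probe sets was -0.29, against -0.05 as deposited.

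Nupr1 (p8), a small chromatin-associated stress protein first found in the rat pancreas during pancreatitis, had the largest fitted change among the members tested. Its signals were 8352, 6174 and 7136 in dexamethasone cultures and 1470, 1864 and 1413 in control cultures. The lowest dexamethasone array thus stood well above the highest control array. The mean was 7221 ± 1092 with dexamethasone and 1582 ± 246 in controls, a log2 change of 2.19 ± 0.15 (limma adjusted p = 1.2e-05), or 4.56-fold with a 95% interval of 3.60 to 5.79. Its rise ranked 89 among the 7051 genes tested.

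Trib3, a pseudokinase that binds ATF4 and holds back its activity, was measured by 3 probe sets, all with groups that did not overlap. The brightest gave 363.1, 353.4 and 320.7 in dexamethasone cultures, against 175.3, 174.2 and 185.7 in control cultures. This was a log2 change of 0.95 ± 0.18 (limma adjusted p = 0.0035), or 1.94-fold with a 95% interval of 1.46 to 2.57. The second probe set read 160.2, 163.0 and 172.9 with dexamethasone and 47.9, 82.2 and 45.8 in controls, where no array was above background. It was at least 2.54-fold higher with dexamethasone, the bound being the mean log2 signal against the array background level, and too dim for the main test (adjusted p = 0.0151 with no filter on signal). The remaining probe set was at 61.2, 208.1 and 41.7 with dexamethasone, of which only replicate 2 was above background, and at 7.4, 13.8 and 9.6 in controls. No fold is given for it, since 2 of the 3 dexamethasone arrays did not measure it above background. The brightest and the dimmest belong to a class of probe sets that can detect more than 1 transcript, and all 3 were higher on every dexamethasone array than on any control array.

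Ppp1r15a, the stress-induced regulatory subunit that directs a phosphatase to eIF2, read 743.6, 531.7 and 522.4 in dexamethasone cultures and 325.1, 286.6 and 327.3 in control cultures. Again the groups were apart, with dexamethasone replicate 1 the highest. The log2 change was 0.92 ± 0.16 (limma adjusted p = 0.00266), or 1.89-fold with a 95% interval of 1.46 to 2.45.

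Ddit3 (CHOP), a transcription factor of prolonged stress, had signals of 202.4, 166.4 and 184.8 with dexamethasone and 135.5, 169.9 and 137.6 in controls. The groups overlapped, since dexamethasone replicate 2 was below control replicate 2. The log2 change of 0.32 ± 0.22 did not pass (limma adjusted p = 0.291), and its 95% interval of -0.18 to 0.83 allows from a small fall to a rise near those of Atf4 and Trib3. Atf3, a repressor induced early in many stresses, was listed at 9.0, 5.9 and 9.0 with dexamethasone and at 4.6, 6.8 and 37.2 in controls. All 6 values were below the array background levels, which ran from 83.7 to 115.9 on dexamethasone arrays and from 51.7 to 97.3 on control arrays, so no fold is given.

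Promoter sequence is shown for Nupr1, Trib3 and Ppp1r15a, whose windows held an 8-base C/EBP-ATF or cAMP response element. The match in Atf4, to a 6-base element found in more promoters, is given by count alone. Windows of 250 bases before to 50 after the start, from RefSeq on the build GRCr8, were found for 9 of the 10 genes, all but Atf3. The motifs searched, on both strands, were the C/EBP-ATF response element TGATGNAA, the cAMP response element TGACGTCA, the second nutrient-sensing element of human ASNS (GTTACA) and the full glucocorticoid response element, AGAACA and TGTTCT with 3 bases between them. The C/EBP-ATF element was found in 2 of 9 member promoters, Nupr1 and Trib3, and in 3.98% of all 33469 promoters. The cAMP response element was found in Ppp1r15a and in 1.83% of all promoters, and GTTACA in Atf4 and in 9.01%. The glucocorticoid element was found in no member and in 0.0149% of promoters. Each line gives 30 bases in the direction of the gene with the match in capitals. The match lies 55 to 48 bases before the start in Nupr1 (chr1:190645938-190645967, minus strand), 21 to 14 bases before it in Trib3 (chr3:161275536-161275565, minus strand) and 66 to 59 bases before it in Ppp1r15a (chr1:105139644-105139673, minus strand). In Nupr1 and Trib3 the element reads on the opposite strand, so the capitals are its reverse complement.
Nupr1: aaaaggccagaTTGCATCAgacagggcttg
Trib3: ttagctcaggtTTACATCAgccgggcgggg
Ppp1r15a: cgcctctccggTGACGTCAgcatagcgctg
These matches are letters in a short window, not measured binding, and no match in the other members says only that these letters are not in this window.

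Asns, the enzyme that makes asparagine from aspartate with nitrogen from glutamine, is the member most used as a readout of ATF4 activity. It had signals of 4125, 4892 and 3411 in dexamethasone cultures, against 998.4, 1485 and 818.5 in control cultures. The lowest dexamethasone array was above the highest control array. The mean was 4142 ± 741 with dexamethasone and 1101 ± 345 in controls, a log2 change of 1.94 ± 0.12 (limma adjusted p = 7.1e-06), or 3.84-fold with a 95% interval of 3.17 to 4.65. Its adjusted p was the smallest among the members, and the change was 2.05, 1.72 and 2.06 in the 3 pairs. That rank depended on the replicate block. Without the block the limma adjusted p of Asns was 9.2e-05 (SE 0.21), against 3.6e-06 for Nupr1.

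The 3 enzymes that make serine from a glycolytic intermediate gave another picture. Phgdh, the first and committed enzyme, read 1174, 1608 and 872.4 in dexamethasone cultures and 1185, 1405 and 1086 in control cultures. The groups overlapped, with a log2 change of -0.04 ± 0.14 (limma adjusted p = 0.831) and a 95% interval of -0.36 to 0.27. Psat1, the aminotransferase of the second step, read 889.6, 1176 and 705.4 with dexamethasone and 793.1, 1700 and 801.1 in controls. Control replicate 2 was the highest of the 6 arrays, and the change of -0.18 ± 0.16 did not pass (adjusted p = 0.401, 95% interval -0.54 to 0.18). It was -0.0045 without dexamethasone replicate 3 and 0.18 without control replicate 2, in fits without pairs.

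Psph, the phosphatase of the last step, read 330.2, 370.7 and 338.0 with dexamethasone and 339.6, 500.6 and 380.1 in controls. Its change was -0.21 ± 0.16 (limma adjusted p = 0.337, 95% interval -0.58 to 0.15). It passed, as lower, in the fit scaled to the hybridization controls (-0.46, adjusted p = 0.0414). The upper ends of the 3 intervals, 0.27, 0.18 and 0.15, were below the lower ends for Asns (1.67) and Nupr1 (1.85). The difference in change between genes was not tested.

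**Figure D2:**
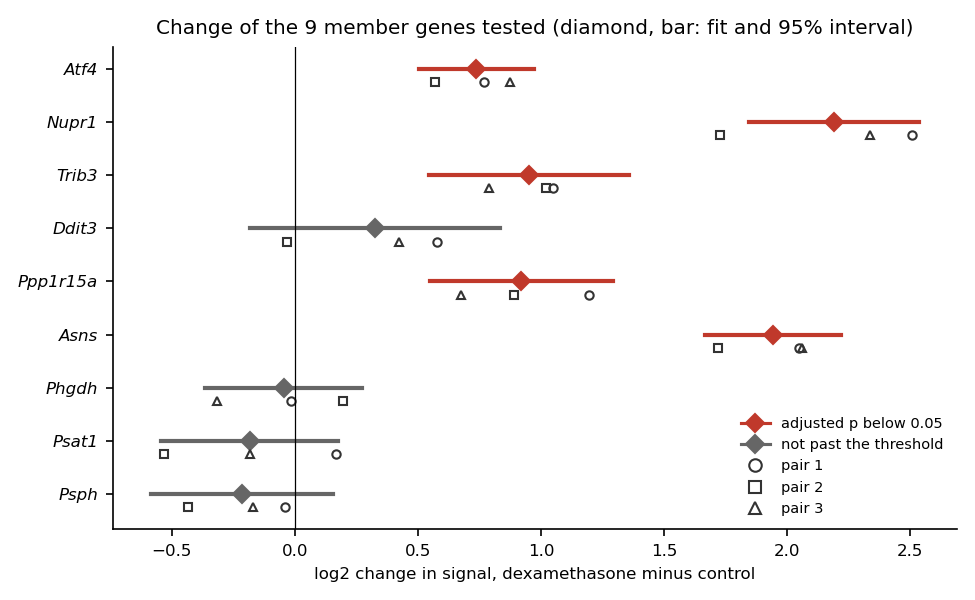
Log2 change in signal, dexamethasone minus control, of the 9 member genes tested, with the fitted value (diamond), its 95% interval (bar) and each of the 3 pairs (open symbols). Intervals of Atf4, Nupr1, Trib3, Ppp1r15a and Asns lie above 0, and those of Ddit3, Phgdh, Psat1 and Psph include 0.

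Signals were also compared between replicate numbers. Asns, Phgdh, Psat1 and Psph, the 4 amino acid enzymes, each had their highest signal in replicate 2 in both groups, a pattern chosen after the values were seen. This held for 12.6% of all genes tested. In Asns, replicate 2 was highest, then 1, then 3, both with dexamethasone (4892, 4125 and 3411) and in controls (1485, 998.4 and 818.5), and Phgdh had the same order. Differences between replicate numbers, tested with limma as an F test of the pairing terms that was likewise added later, did not pass for Asns (adjusted p = 0.660), Psat1 (0.550), Phgdh (0.868) or Psph (0.920), and passed for 0.0945% of probe sets.

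Among the 7051 genes tested, the rises of Trib3, Ppp1r15a and Atf4 ranked 404, 430 and 601, and that of Asns ranked 116. Phgdh was at the 49.7th percentile of log2 change, Psat1 at the 38.4th and Psph at the 36.4th. The serine enzymes thus lay in the middle of the distribution. The 5 genes whose log2 signal followed that of Asns most closely over the 6 arrays were Spsb3, Hpx, Isg20, Gucy2c and Abhd17c, with Pearson r from 0.996 to 0.998. Their log2 changes ran from 0.18 in Abhd17c, which did not pass (limma adjusted p = 0.228), to 4.11 in Gucy2c. These arrays share the treatment and the replicate numbers, and the correlation is a description only.

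**Figure D3:**
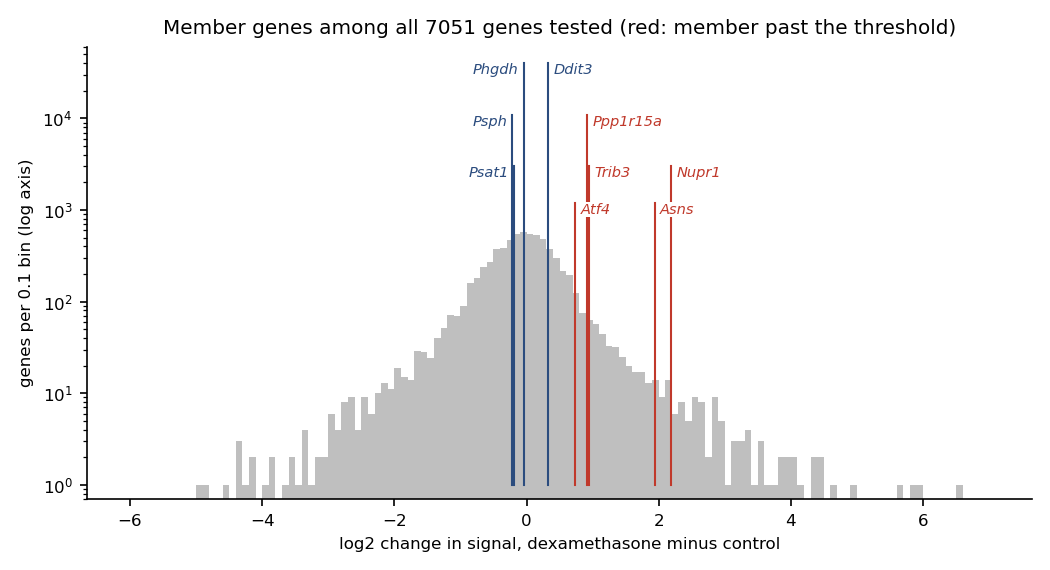
Histogram of the log2 change in signal, dexamethasone minus control, of all 7051 genes tested, in bins of 0.1 on a log axis, with lines at the 9 member genes (line heights carry no value). Nupr1 (2.19) and Asns (1.94) stand in the upper tail, and Phgdh, Psat1 and Psph between -0.21 and -0.04.

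Of the eIF2 kinases upstream of ATF4, Eif2ak3 and Eif2ak1 did not pass, and Eif2ak4 and Eif2ak2 were too dim to test. Eif2ak3 (PERK), which senses unfolded protein in the endoplasmic reticulum, had a mean signal of 1075 ± 124 with dexamethasone and 944.8 ± 64.5 in controls (log2 change 0.18 ± 0.13, limma adjusted p = 0.316). Eif2ak1, the haem-regulated kinase, changed by 0.15 ± 0.13 (adjusted p = 0.402). Eif2ak4 (GCN2), which senses uncharged tRNA, was too dim to test at 132.1 ± 6.7 with dexamethasone and 133.8 ± 10.9 in controls. Eif2ak2, activated by double-stranded RNA, read 19.4, 52.8 and 78.2 with dexamethasone and 61.6, 57.7 and 124.9 in controls. These groups overlapped (limma adjusted p = 0.222 with no filter). It was not above background on any dexamethasone array and was above it on 2 control arrays. Background itself differed, at 83.7 to 115.9 on dexamethasone arrays and 51.7 to 97.3 on control arrays. Of 15 tested genes of eIF2 signalling and initiation, 4 rose and 0 fell: Dnajc3 (0.71 ± 0.18, adjusted p = 0.0142), an inhibitor of eIF2 kinases, Eif2s3 (0.71 ± 0.18), a subunit of eIF2, Ppp1r15b (0.58 ± 0.13), the constitutive counterpart of Ppp1r15a, and Eif2b3 (0.52 ± 0.14), a subunit of the eIF2 exchange factor. Under hybridization control scaling 0 were higher and 2 lower. In the main fit the list's median log2 change was 0.12, and 17.0% of all genes rose and 21.4% fell.

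Of 19 tested genes on a list of other ATF4 targets, 12 rose, 1 fell and 6 did not pass, with a median log2 change of 0.58. Here 17.0% of all genes rose and 21.4% fell. With scaling to the hybridization controls, 8 genes of the list were higher and 1 lower. Among those past the signal filter, the largest rises were those of Cebpb, a C/EBP factor that pairs with ATF4, and of Got1, the cytosolic aspartate aminotransferase. Cebpb read 1162, 1723 and 1449 with dexamethasone and 97.3, 122.3 and 83.4 in controls (log2 change 3.84 ± 0.17, limma adjusted p = 1.4e-06). Its 3 control signals were above their array background but below the filter signal of 147.6. It passed the filter through its dexamethasone signals, and the size of its change rests on dim controls. Got1 read 3701, 4243 and 3793 with dexamethasone and 416.1, 465.0 and 496.8 in controls (3.09 ± 0.12, adjusted p = 8.6e-07). Cebpb is also a known glucocorticoid target, and several genes on the list have inducers other than ATF4. The part of ATF4 or of other inducers in these rises was not tested. Cth, an enzyme of cysteine synthesis on this list, was too dim on average for the main test and at least 12.7-fold higher with dexamethasone (limma adjusted p = 3.8e-05 with no filter). Cebpg, another ATF4 partner, did not pass (0.36 ± 0.14, adjusted p = 0.0747). Lonp1, a mitochondrial protease, was the faller (-0.55 ± 0.12, adjusted p = 0.00674).

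Of 7 tested amino acid transporters linked to the response, 4 rose and 1 fell, against 17.0% and 21.4% of all genes. Their median was 0.85. Slc7a5, the light chain of the large neutral amino acid exchanger, read 4035, 2108 and 3584 with dexamethasone and 775.2, 546.2 and 591.7 in controls (2.31 ± 0.15, limma adjusted p = 8.6e-06). Its heavy chain Slc3a2 read 8356, 7007 and 6951 with dexamethasone and 1675, 1465 and 1556 in controls (2.25 ± 0.10, adjusted p = 1.6e-06). Both chains of this exchanger thus had groups that were far apart. Slc6a9, a glycine transporter, and Slc38a2, a neutral amino acid transporter induced by amino acid shortage, rose by 0.96 ± 0.19 and 0.85 ± 0.14. The groups overlapped for Slc6a9, with dexamethasone replicate 3 (222.9) below control replicate 2 (237.2). Slc38a1, a related glutamine carrier, fell by 0.71 on the log2 scale (adjusted p = 0.00401).

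Cytosolic aminoacyl-tRNA synthetases, which charge tRNA with amino acids, showed 8 risers, 2 fallers and 9 that did not pass among 19 tested. Over all genes 17.0% rose and 21.4% fell. Nars1, the enzyme for asparagine, rose by 0.78 ± 0.12 (limma adjusted p = 0.00125), and Mars1, the enzyme for methionine, by 0.78 ± 0.11 (adjusted p = 0.000826). The fallers were Vars1 (-0.62 ± 0.19), for valine, and Kars1 (-0.54 ± 0.13), for lysine. The list's median was 0.32, and the risers numbered 5 with scaling to the hybridization controls.

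The genes of serine use, glycine and folate one-carbon metabolism had 4 risers, 1 faller and 6 that did not pass among 11 tested. Their median was -0.08, and 17.0% of all genes rose and 21.4% fell. Cbs, which joins serine to homocysteine, read 1570, 1539 and 1904 with dexamethasone and 420.2, 680.5 and 532.1 in controls (1.64 ± 0.17, limma adjusted p = 0.000121). Gcsh, a part of the glycine cleavage system, rose by 0.90 ± 0.15, Glyctk (glycerate kinase) by 0.76 ± 0.17 and Mthfd1, a cytosolic folate enzyme, by 0.61 ± 0.13. Mthfd1l, a mitochondrial folate enzyme, fell by 0.97 on the log2 scale (adjusted p = 0.00528). Under hybridization control scaling 2 were higher and 2 lower.

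Among the other branches of the unfolded protein response, 8 of 19 tested genes rose, 1 fell and 10 did not pass. Their median was 0.30, and 17.0% of all genes rose and 21.4% fell. Edem1, which directs misfolded glycoproteins to degradation, read 3679, 5914 and 4012 with dexamethasone and 689.2, 770.8 and 662.4 in controls (2.65 ± 0.13, limma adjusted p = 2.4e-06). Dnajc3, named above, was the next largest rise, and Pdia4, a disulfide isomerase, fell by 0.83 on the log2 scale. Under hybridization control scaling the counts were 2 higher and 2 lower.

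**Figure D4:**
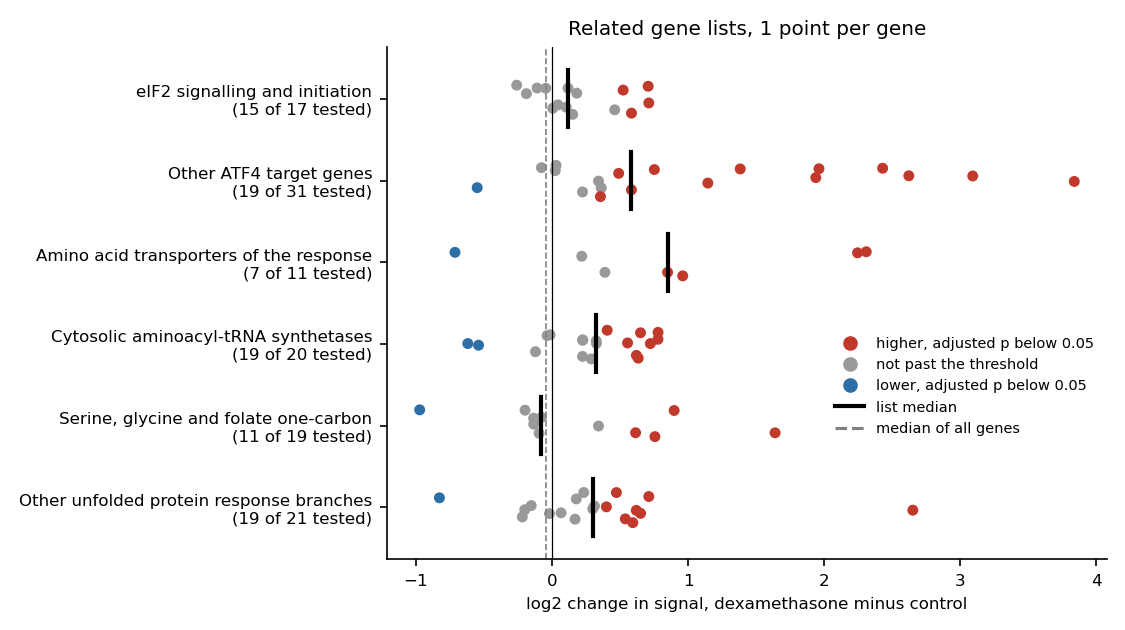
Log2 change in signal, dexamethasone minus control, of the tested genes of 6 related lists, 1 point per gene, coloured by call, with the list median as a black bar and the median of all genes as a dashed line. Medians run from -0.08 for the one-carbon list to 0.85 for the amino acid transporters, and most points above 2 belong to the list of other ATF4 targets.

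Over the whole array, the groups correlated less between (Pearson r 0.835 to 0.856) than within them (dexamethasone 0.956 to 0.969, controls 0.971 to 0.983). Dexamethasone replicate 3 stood apart on the second principal component. Without it, in a fit without pairs, the 5 calls among the members held, with log2 changes of 0.73 for Atf4, 2.19 for Nupr1, 1.01 for Trib3, 1.01 for Ppp1r15a and 2.07 for Asns. All 5 glucocorticoid-induced genes used to check the treatment (Fkbp5, Tsc22d3, Per1, Sgk1 and Tat) rose. Only 3 of these 5 were above background on all 6 arrays. The signal filter used the mean over both groups, so a gene dim in 1 group could still be tested. Tat is counted again below, among the hepatocyte markers that rose. Of 15 acinar markers 13 were on the array, all above background on every array, and their summed signal was 146193 to 162721 with dexamethasone and 85884 to 102251 in controls. Of the 12 tested, 9 rose and 0 fell, against 17.0% and 21.4% of all genes. Markers of other cell types moved too: of 2 duct markers tested (Krt19, Krt7) both fell (summed over 3 measured, 677.3 to 2049 with dexamethasone and 2809 to 3930 in controls), and 4 of 4 hepatocyte markers tested rose (summed over 5 measured, 4059 to 21755 with dexamethasone and 841.3 to 2447 in controls), with Alb too dim to test. Of 3 stromal, endothelial and immune markers tested 1, Pecam1, rose (summed over 9 measured, 1209 to 1286 with dexamethasone and 931.9 to 1050 in controls), with Vim and Ptprc below background on every array, and neither of 2 islet markers tested passed (summed over 7 measured, 2662 to 5017 with dexamethasone and 3189 to 3669 in controls), with Gcg and Pdx1 below background on every array. The part of these in the members' changes was not tested.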

How the data were processed

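The 6 arrays, 3 with dexamethasone and 3 controls, were taken as deposited by the authors: 1 intensity per probe set and array, the linear MAS5 signal for which the submitters' processing notes name GCOS and MAS5. Versions, scaling settings and detection calls are not given in the sources used here. Every array had a trimmed mean signal of 500.1, so signals are relative to each array's total. Of 15923 probe sets, 57 array controls were left out. Probe sets were named from the platform annotation, updated through the NCBI table of GRCr8: 12783 had 1 symbol, 312 several and 2771 none. Each gene was represented by the brightest of its probe sets (mean log2 signal).

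Signals were taken to log2, with 4 values of 0 set to 0.1. Probe sets at or above the 40th percentile of mean log2 signal (a signal of 147.6) were tested, 9520 in all, covering 7051 genes. Of the 12 member probe sets 9 passed this filter, 1 for each gene but Atf3. limma 3.58.1 in R 4.3.3 fitted treatment with replicate number as a block, with an intensity trend and Benjamini-Hochberg adjustment over all 9520, tested on simulated data. The series' design text calls the cultures pairs, and the replicate numbers were taken as those pairs. Deviations from the group means of arrays with the same number correlated at -0.10, 0.11 and 0.21, and those with other numbers at -0.25 to 0.18, so the values themselves do not show the pairing. The p-values measure the spread over 3 experiments with 1 cell line, and the number of arrays limits the precision. Background was the highest signal of 27 Bacillus subtilis control probe sets on each array, and 68.3% to 79.5% of probe sets lay above it.

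Every member was named, and from each list the 2 largest rises and 2 largest falls past the threshold, with the eIF2 kinases, Ppp1r15b, Cebpb and Cebpg in any case. Where a list had 5 or fewer risers, the others were picked with their values in view. The members and lists were chosen with earlier results of these data known. Alternatives were 4 other scalings, 2 other filters, no intensity trend, a pseudocount of 90.5, no block, and leaving out each replicate pair or array. Promoter windows came from the RefSeq table on GRCr8.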

Additional observations from a re-analysis of the deposited data

How the results depend on the processing

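The calls of Atf4, Nupr1, Trib3, Ppp1r15a and Asns held in every alternative fit that tested them, 18 for each and 17 for Trib3, which the filter at the 60th percentile left untested. Of 160 alternative values of the 9 member probe sets tested, 159 kept the direction of any call and the side of the threshold. The exception was Psph with hybridization control scaling, which gave 1 member lower instead of 0, and 778 probe sets higher and 3257 lower on the array instead of 1512 and 2019. That scaling also gave, of the lists, 0 higher and 2 lower for eIF2 signalling (4 and 0 in the main fit), 2 and 2 for one-carbon genes (4 and 1), 5 synthetases higher (8), and 2 and 2 for the unfolded protein response (8 and 1). Of the other ATF4 targets it gave 8 higher and 1 lower (12 and 1). With quantile normalization 2 one-carbon genes were lower, and with 75th percentile centring 1 synthetase was. Without the replicate block 3542 probe sets changed, against 3531 with it, and the same 5 member genes were called. Over the fits that left out a replicate pair or an array, 2461 to 3530 probe sets changed. MAS5 subtracts mismatch signal, which can make dim probe sets noisy. Whether it did so for the dim probe sets of Ddit3 and Trib3 was not tested. With the lowest-signal probe set of Trib3 and no filter, a pair of choices made after seeing the data, 5 members were called higher. That probe set was above background on 1 dexamethasone array and 0 control arrays, so this count does not bear on the rise of Trib3.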

Other observations

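A pair of genes on the lists fell below the signal filter although their groups were apart, and both were chosen after their values were seen. Cth, the enzyme that releases cysteine in transsulfuration and a known ATF4 target, read 919.9, 1047 and 581.3 in dexamethasone cultures and 10.7, 9.6 and 7.4 in control cultures. No control array was above background, so it was at least 12.7-fold higher with dexamethasone (limma adjusted p = 3.8e-05 with no filter). Sds, serine dehydratase, which breaks serine down to pyruvate, read 227.4, 226.0 and 265.7 with dexamethasone and 72.4, 106.1 and 57.5 in controls, above background on all 6 arrays (log2 change 1.65 ± 0.30, adjusted p = 0.00872 with no filter). Shmt2, the mitochondrial enzyme that makes glycine from serine, did not pass (-0.08 ± 0.16, adjusted p = 0.735).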
